A study of Caenorhabditis remanei with 48 samples.

Results

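Heat-selected Caenorhabditis remanei larvae incubated at 30 °C were compared with heat-selected larvae incubated at 20 °C, in the offspring of unheated parents. The heat-selected population derives from the ancestral strain PX443, and the 12 libraries described here, 6 per larval temperature, are those of its 16 libraries whose parents lived at 20 °C (of 48 libraries in the series). Bleached embryos spent 20 h in buffer without food at either temperature, and the first-stage (L1) larvae were then filtered through 20 microns and frozen in pools of about 100000 individuals. Polyadenylated RNA was sequenced, and each value counts the reads of a gene model. Both temperatures are present in both batches that the labels name: libraries 1 and 2 are batch E and libraries 3 to 6 are batch F. The groups set beside them are heat-selected larvae of parents at 30 °C (2 libraries at each larval temperature, all batch E), ancestor larvae (strain PX443) and control-selected larvae (derived from PX443), each with 6 libraries at 30 °C and 6 at 20 °C from parents at 20 °C. Heat selection is represented by 1 population with its own batches, and the labels do not say whether libraries of a group came from separate cultures. The p-values therefore measure the spread between these libraries. In pooled whole larvae, fewer cells of a type and less RNA per cell cannot be told apart, and the labels do not say how far larvae had developed at each temperature.

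Worms that hatch without food stop developing as L1 larvae until they are fed. When an animal cell is heated, its heat-shock transcription factor drives genes for chaperones, proteins that hold or refold other proteins, and many other genes are turned down. The files pair gene identifiers with no names, so members of that response could not be looked up, and nothing is said below of what a gene does. Each identifier names the linkage group or scaffold that carries the model and a numbered stretch of it.

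Counts in genes ran from 3132367 to 5757222 per library at 30 °C and from 2196238 to 4164215 at 20 °C. Of 24723 gene models 13460 had enough counts to be tested. In a principal component analysis of the 12 libraries the component that held 25.6% of the variance separated the temperatures, at 5.57 to 57.9 for larvae at 30 °C and −44.5 to −20.5 for larvae at 20 °C. Libraries 5 and 6 at 30 °C lay at the low end, at 5.57 and 7.34, and were also apart from the other 10 on the component with 9.26% of the variance (44.7 and 45.3, against at most 4.61). The first component, with 30.5%, separated the batches, at 24.2 to 95.7 in batch E and −46 to 19.4 in batch F. Library 1 at 20 °C lay furthest out, at 95.7. Consecutive libraries at 30 °C were close to each other: the chi-square statistic per gene, which sampling noise alone puts near 1, was 3.32 to 9.22 within the pairs 1 and 2, 3 and 4, and 5 and 6, and 32.2 to 75.8 between libraries of different pairs. At 20 °C it was 5.88 to 26.1 within pairs and 5.91 to 78.5 between them. No 2 libraries agreed within sampling noise, so none was treated as a file deposited more than once. Whether consecutive libraries are repeat preparations of 1 culture was not tested, and counts are therefore also given with consecutive libraries summed in pairs, which leaves 3 values per group.

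Library 3 at 20 °C stood apart for the most strongly raised genes. In the 16 genes that rose by at least 4 on the log2 scale and had a mean log2 CPM of at least 1 (CPM, counts scaled to a common library size), it was the highest library at 20 °C every time. Its level was a median 8.51% of that in library 3 at 30 °C, with quartiles of 7.6 and 9.97%. For library 4 the same ratio was 0.888%, for libraries 1 and 2 it was 0.459 and 0.209%. In libraries 5 and 6 at 20 °C it was 12.3% (over 15 genes) and 10.1%, beside levels at 30 °C that were below those of the other 4 libraries in all 16 genes. Whether the level in library 3 came from its larvae or from its preparation was not tested. Without it 2839 genes were called in place of 3000, and fold changes of named genes that it moved by over 1.5 times are given without it too. More reads also fell on overlapping gene models, and so were not counted, at 30 °C (4.08% ± 0.363 of reads) than at 20 °C (2.57% ± 0.294, SD, n = 6 each; difference 1.5 points, exact two-sided permutation test, p = 0.0022, adjusted over 5 read categories 0.011). Fewer lay outside genes at 30 °C, 21.6% ± 5.19 against 31.5% ± 6.57 at 20 °C (exact permutation p = 0.017, adjusted 0.043), a gap that was 24.1 against 25.7% in batch E and 20.4 against 34.4% in batch F. Both permutation tests shuffled single libraries without regard to batch or to consecutive pairs, so their p-values take each library as separate. The part of these read categories in the gene results was tested only by adding the share of reads outside genes to the fit, which left 2678 genes called.

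Larvae at 30 °C differed from larvae at 20 °C in 3000 of the 13460 genes (22.3%), 1439 higher (10.7%) and 1561 lower (11.6%), at an adjusted p under 0.05 (edgeR, quasi-likelihood, adjusted after Benjamini and Hochberg). Small changes made up most of them: the median log2 fold change was 0.80 among raised genes (quartiles 0.61 and 1.19) and −0.95 among lowered genes (quartiles −1.36 and −0.71). The far ends were unequal. A change of at least 1 on the log2 scale was seen in 481 raised and 720 lowered genes, of at least 2 in 132 and 127, of at least 3 in 49 and 27, and of at least 4 in 33 and 9. Calls were more frequent at higher levels: in the lowest of 5 equal classes of genes by mean level 107 were raised and 187 lowered, and in the highest class 484 were raised and 327 lowered.

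With libraries summed in pairs 683 genes passed (5.07%), 272 raised (2.02%) and 411 lowered (3.05%), and all of them were among the 3000. In 394 genes (2.93%) the 6 libraries at 30 °C all lay above the 6 at 20 °C, and 376 of these were called raised. In 414 genes (3.08%) they all lay below, and 409 of these were called lowered. The split between directions depends on scaling: scaled to total counts alone, 821 of 2799 called genes were higher, as the median of all genes was then −0.16 on the log2 scale in place of 0.02. Without libraries 5 and 6 at 30 °C, an alternative added after the data were seen, 2795 genes passed, 1240 higher and 1555 lower.

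**Figure D1:**
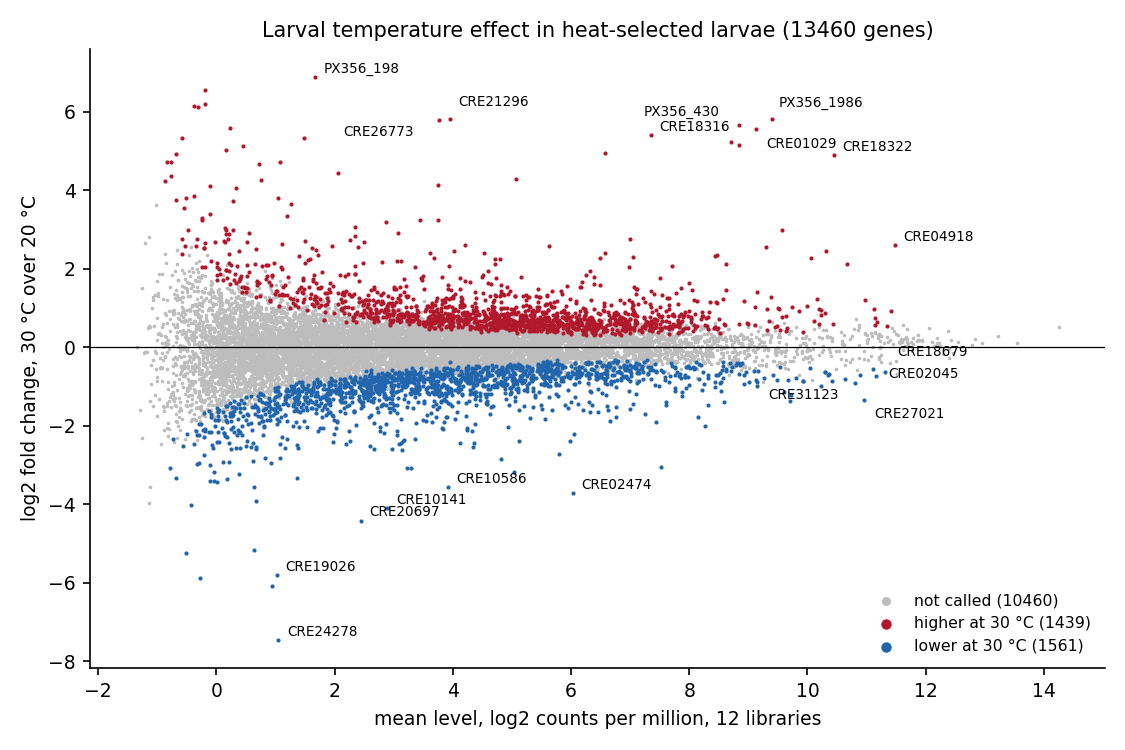
Log2 fold change at 30 °C over 20 °C against the mean level over the 12 heat-selected libraries (log2 CPM), 1 point per tested gene. Red points were called higher at 30 °C (1439), blue points lower (1561), and labels without CRE_ stand for the CRE_PX356 identifiers. The genes that rose by more than 4 lie at both low and high levels.

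The 6 most strongly raised genes that also passed with pairs summed lay on 5 linkage groups or scaffolds. CRE_PX356_198 and CRE21296 share stretch 47 of linkage group 2. CRE_PX356_198 stood at 5.01, 16.8 and 85 CPM (lowest, median and highest of 6 libraries) at 30 °C and at 0, 0 and 1.46 CPM at 20 °C, where library 3 held all 4 of its counts. Its log2 fold change was 6.87 ± 0.7 (SE; edgeR adjusted p = 1.6e-09). CRE21296 stood at 91.9, 314 and 345 CPM at 30 °C and 0, 0.218 and 26.4 CPM at 20 °C, a log2 fold change of 5.82 ± 0.79 (adjusted p = 5.2e-07). The groups do not overlap in either gene, and in both the highest value at 20 °C is that of library 3, with the next at 0 and 1.06 CPM. Without library 3 the fitted log2 fold change of CRE21296 was 10.11. It rests on few counts at 20 °C: both libraries of batch E held 0, and none exceeded 1.06 CPM apart from library 3. For CRE_PX356_198 no count at 20 °C is left without that library, so the fitted 10.69 depends on the prior count and is no measured fold.

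CRE26773, on linkage group 4, had 53.9, 193 and 283 CPM at 30 °C and 0, 0.507 and 16.8 CPM at 20 °C, a log2 fold change of 5.8 ± 0.73 (adjusted p = 1.6e-07). Without library 3 at 20 °C the fitted value was 8.65, which rests on few counts, as no other library at 20 °C exceeded 1.31 CPM. All 6 libraries at 30 °C exceeded all 6 at 20 °C. The other 3 were abundant. CRE01029, on scaffold 78, had 826, 6038 and 12877 CPM at 30 °C and 14.7, 66.9 and 909.8 CPM at 20 °C (5.55 ± 0.95, adjusted p = 3e-05). CRE_PX356_430, on scaffold 127, had 396, 8612 and 10849 CPM at 30 °C and 9.1, 58.5 and 736 CPM at 20 °C (5.67 ± 1.05, adjusted p = 0.00011). In these 2 genes the groups overlapped, since library 3 at 20 °C lay above library 5 at 30 °C and, in CRE_PX356_430, above library 6 too. CRE18316, on scaffold 209, had 379, 1868 and 2792 CPM at 30 °C and 7.47, 18.5 and 173 CPM at 20 °C (5.4 ± 0.88, adjusted p = 1.4e-05), with no overlap. Leaving out libraries 5 and 6 at 30 °C gave log2 fold changes of 6.6, 6.87 and 6.35 for these 3 genes, and leaving out library 3 at 20 °C gave 6.94, 7.12 and 6.65.

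**Figure D2:**
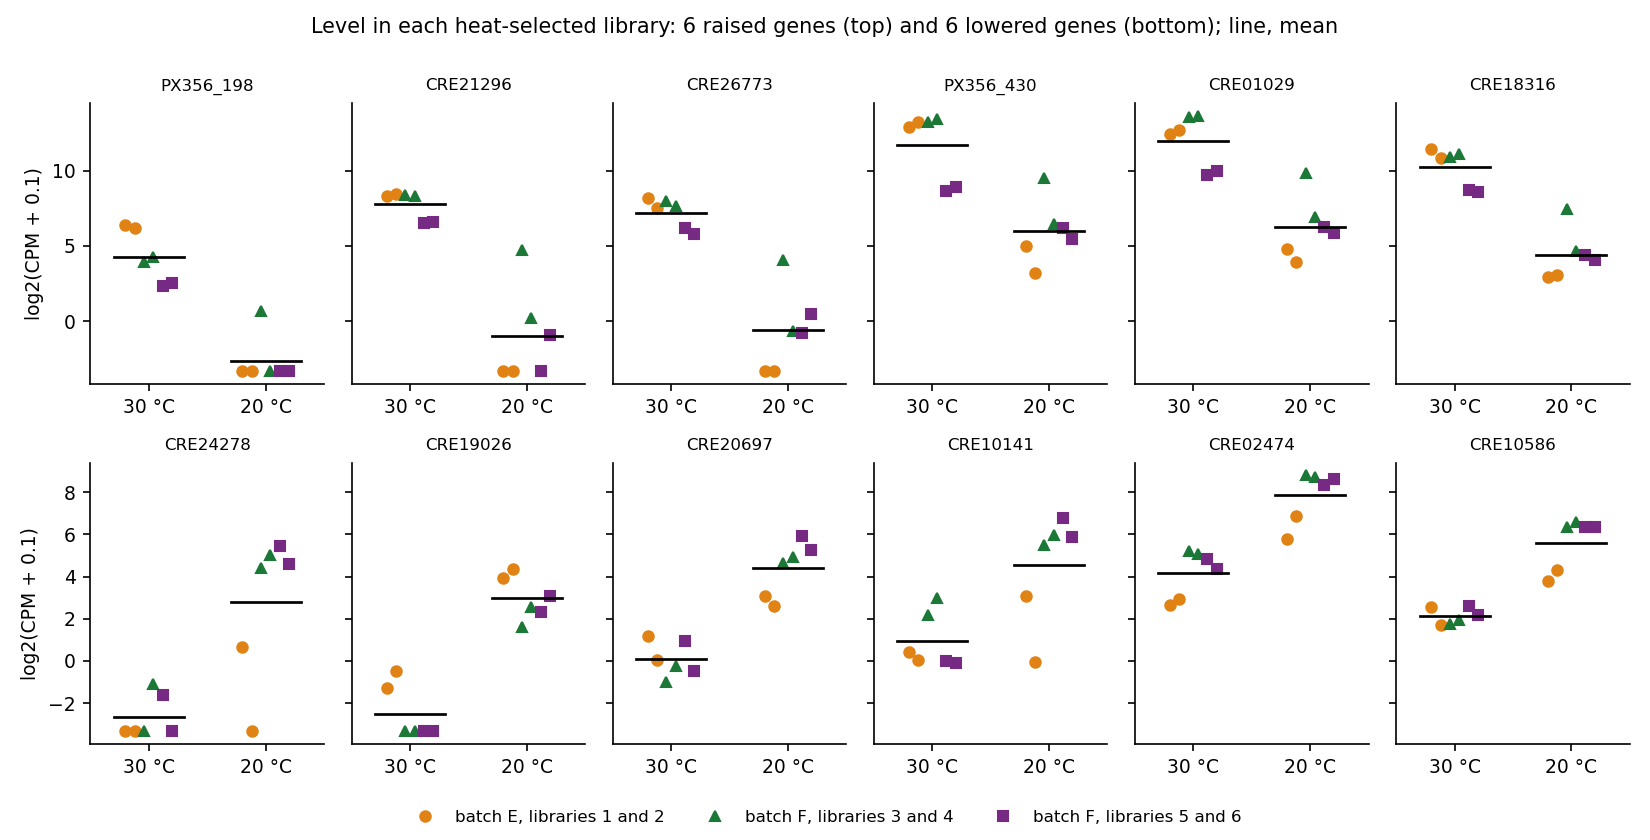
Level of each library on a log2(CPM + 0.1) scale for the 6 raised genes (top row) and the 6 lowered genes (bottom row) named by the rule, larvae at 30 °C left and at 20 °C right; the line is the mean of the 6 log2 values. In the raised genes libraries 5 and 6 at 30 °C lie below the other 4 and library 3 at 20 °C lies above the other 5; in 5 of the 6 lowered genes, all but CRE19026, libraries 1 and 2 at 20 °C lie below the other 4.

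A few genes took a large share of the counts at 30 °C. The largest rises in mean CPM were those of CRE_PX356_1986, which shares stretch 1 with CRE_PX356_430 on scaffold 127, of CRE18322, which shares the first stretch of scaffold 209 with CRE18316, of CRE04918 and of CRE_PX356_430. CRE_PX356_1986 had 676, 8389 and 30215 CPM at 30 °C and 11.7, 51.5 and 2111 CPM at 20 °C. Its highest values were those of libraries 3 and 4 at 30 °C, 30215 and 29196 CPM, and its lowest those of libraries 5 and 6, 676 and 697. The log2 fold change was 5.81 ± 1.33 with single libraries (edgeR adjusted p = 0.0013), and the call was lost with pairs summed (adjusted p = 0.1). Without library 3 at 20 °C the fold change was 7.71. CRE18322 had 1787, 12104 and 18408 CPM at 30 °C and 72.9, 275 and 1553 CPM at 20 °C (4.9 ± 0.82, adjusted p = 2.3e-05), or 5.71 without library 3 at 20 °C. CRE04918, on scaffold 154, had 4731, 5177 and 13594 CPM at 30 °C and was already abundant at 20 °C, with 555, 1257 and 2541 CPM (2.61 ± 0.37, adjusted p = 1.8e-06). The last 2 did not overlap between temperatures.

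The 10 genes with the largest rise in mean CPM together made up 5.74 and 5.88% of the scaled library in libraries 1 and 2 at 30 °C, 11 and 11.6% in libraries 3 and 4, and 1.73 and 1.77% in libraries 5 and 6. At 20 °C they made up 0.168 to 1.23%, the highest being library 3. All 6 libraries at 30 °C exceeded that value, and libraries 5 and 6 came closest to it. The 10 genes with the largest fall held 0.91 to 2.05% at 30 °C and 1.45 to 3.17% at 20 °C, ranges that overlap. These genes were chosen by the same values, so the shares are a description.

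**Figure D3:**
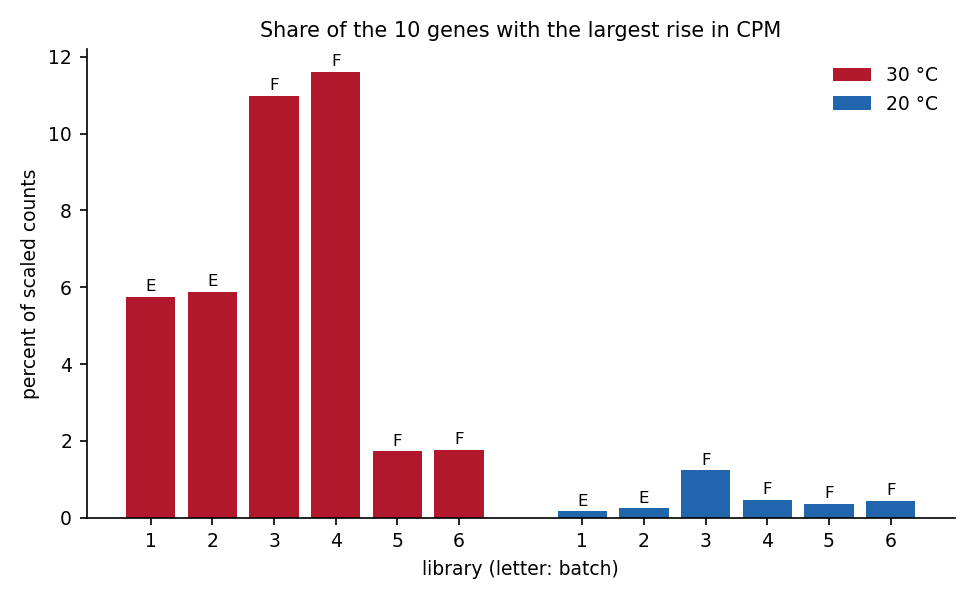
Share of each heat-selected library, in percent of the scaled library size, taken by the 10 genes with the largest rise in mean CPM; red bars are larvae at 30 °C, blue bars larvae at 20 °C, and letters give the batch. Libraries 3 and 4 at 30 °C reach 11 and 11.6%, libraries 5 and 6 stay at 1.73 and 1.77%, and library 3 is the highest at 20 °C with 1.23%.

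Low levels were frequent among the most strongly lowered genes, as among the most strongly raised. Of the 9 genes lowered by at least 4 on the log2 scale, 4 had a mean log2 CPM of at least 1. Of the 33 raised by at least 4, 16 did. CRE24278, on scaffold 2106, had 0, 0 and 0.368 CPM at 30 °C, 2 counts in all, and 0, 22.8 and 43.2 CPM at 20 °C (−7.45 ± 0.66, edgeR adjusted p = 3.6e-11). Its 20 °C level came from batch F: libraries 1 and 2 held 1.49 and 0 CPM, within or near the range at 30 °C. CRE19026, on scaffold 11b, had 0, 0 and 0.63 CPM at 30 °C and 2.93, 7.06 and 20.4 CPM at 20 °C (−5.81 ± 0.48, adjusted p = 7e-12). It fell in both batches, and libraries 1 and 2 at 20 °C were its highest, at 15.2 and 20.4 CPM. CRE20697, on scaffold 136, had 0.402, 0.837 and 2.16 CPM at 30 °C and 6.07, 27.6 and 61.5 CPM at 20 °C (−4.41 ± 0.46, adjusted p = 1.8e-09).

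CRE10141, on linkage group 4, had 0.833, 1.09 and 7.73 CPM at 30 °C and 0.867, 52 and 111 CPM at 20 °C (−4.09 ± 0.48, adjusted p = 3.3e-08). Library 2 at 20 °C, at its lowest value, lay within the range at 30 °C. CRE02474, on scaffold 93, was the most abundant of the 6, with 6.18, 24.2 and 37 CPM at 30 °C and 54.7, 358 and 445 CPM at 20 °C (−3.72 ± 0.24, adjusted p = 6.9e-15). CRE10586, on linkage group 5, had 3.13, 4.03 and 5.92 CPM at 30 °C and 13.7, 80.4 and 96.2 CPM at 20 °C (−3.55 ± 0.32, adjusted p = 3.6e-11). The groups did not overlap in CRE02474 and CRE10586, nor in CRE19026 and CRE20697.

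The largest falls in mean CPM belonged to genes with moderate fold changes. CRE27021, on scaffold 33, had 642, 945 and 2689 CPM at 30 °C and 2912, 3142 and 5480.4 CPM at 20 °C (−1.33 ± 0.28, edgeR adjusted p = 0.00047). Its 2 highest values at 30 °C were those of libraries 5 and 6, without which the log2 fold change was −2.2. CRE31123 (scaffold 95; −0.9 ± 0.3), CRE02045 (linkage group 2; −0.72 ± 0.25) and CRE18679 (scaffold 109; −0.64 ± 0.15) passed with single libraries, at adjusted p-values of 0.023, 0.035 and 0.0021. Leaving out 1 library ended the call of CRE31123 in 4 of 12 fits (library 2 at 20 °C and libraries 1, 2 and 3 at 30 °C) and that of CRE02045 in 8. None of these 4 passed with pairs summed, at adjusted p-values of 0.092, 0.2, 0.28 and 0.17.

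Some tested genes had no counts at all at 1 temperature. In 15 genes the 6 libraries at 20 °C held 0 counts, and 10 of them were called raised. The highest was CRE09398, on scaffold 200, with 43 counts over 6 libraries at 30 °C, at least 11.95-fold above the level that 3 counts in the 6 libraries at 20 °C would give. CRE_PX356_7010, on scaffold 93, was at least 9.73-fold higher on the same floor. In 7 genes the libraries at 30 °C held 0 counts, 2 of them called lowered, and CRE24573 on linkage group 2 was at least 9.59-fold lower. Genes with 0 counts at 1 temperature passed the filter only through other libraries, and the 0 counts fixed their direction. The counts of called genes among them are therefore a description. Of all tested genes 10.7% were called raised and 11.6% lowered. The floors cover counting error only, and the 3 genes were named after their values were seen.

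Called genes lay on every linkage group. Linkage group 5 had the highest share among those with over 100 tested genes, 29% of 290 called, and linkage group 3 the lowest, 11.5% of 165. Linkage group 6 had 40 raised and 16 lowered genes and linkage group 8 had 3 and 17. Of the 33 genes raised by at least 4 on the log2 scale, 3 lay in the first stretch of scaffold 200, 3 in that of scaffold 209 and 3 in stretch 3 of scaffold 57, and stretch 47 of linkage group 2, stretch 1 of scaffold 127 and stretch 1 of scaffold 35 held 2 each. Models of 1 stretch with matching responses can be near-identical copies, and which of these share sequence could not be checked without a genome. Reads whose alignment was not unique were not counted in any gene. The first stretch of scaffold 209 shows how far neighbours differed. CRE18318 had 82.8, 989 and 1792 CPM at 30 °C and 3.48, 16.7 and 136 CPM at 20 °C (4.96 ± 0.82, adjusted p = 1.8e-05), close to the fold changes of CRE18316 and CRE18322, or 6.01 without library 3 at 20 °C. CRE19336, in the same stretch, had 4.79, 25.9 and 32.8 CPM at 30 °C and 5.23, 9.22 and 13 CPM at 20 °C (1.11 ± 0.33, adjusted p = 0.013). The call of CRE19336 was lost without library 3 or library 4 at 30 °C and with pairs summed (adjusted p = 0.2). Both genes were picked after their values were seen.

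Order along the chromosomes was available for 10462 of the tested genes, through locus tags of the strain PX506 assembly, used for order alone. The longest run of neighbours called in 1 direction was of 5 lowered genes in stretch 10 of linkage group 4: CRE10992 (−0.98 ± 0.28), CRE10993 (−1.22 ± 0.43), CRE13211 (−0.77 ± 0.2), CRE10996 (−0.4 ± 0.11) and CRE10998 (−1.0 ± 0.19). Their adjusted p-values ran from 0.0001 to 0.035, and CRE10998, at 5, 8.05 and 8.65 CPM at 30 °C and 12.2, 14.8 and 18.2 CPM at 20 °C, was the 1 member whose groups did not overlap and the 1 that passed with pairs summed (adjusted p = 0.044). CRE10993 held few counts and lost its call in 8 of 12 fits that left out 1 library. Another 9 runs had 4 genes, 4 of them raised and 5 lowered.

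The raised run listed first lay in stretch 4 of scaffold 35 and was uneven. CRE00953 had 1296, 2156 and 3255 CPM at 30 °C and 189, 291 and 446 CPM at 20 °C (2.98 ± 0.35, adjusted p = 2.3e-08), and its neighbour CRE01046 had 367, 407 and 526 CPM at 30 °C and 74.7, 109.9 and 127 CPM at 20 °C (2.06 ± 0.22, adjusted p = 3.8e-09). Neither overlapped between temperatures. The outer members changed little, CRE00954 by 0.62 ± 0.2 (adjusted p = 0.024) and CRE01045 by 0.61 ± 0.23 (adjusted p = 0.049), and CRE01045 lost its call in 8 of 12 fits that left out 1 library and CRE00954 in 3 (library 5 at 20 °C and libraries 3 and 4 at 30 °C). With pairs summed CRE00953 and CRE01046 passed (adjusted p = 0.0094 and 0.0058), and CRE00954 and CRE01045 did not (adjusted p = 0.19 and 0.24).

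Whether both batches gave the same response was examined next. Within batch E, with 2 libraries per temperature, 1084 genes passed (8.05%), 463 higher (3.44%) and 621 lower (4.61%) at 30 °C. Within batch F, with 4, 1727 genes passed (12.8%), 898 higher (6.67%) and 829 lower (6.16%), both from 1 fit on all libraries that gave each batch its own means. Of the genes called in batch E 92.8% had the same sign in batch F, and of those called in batch F 91.1% had the same sign in batch E, against 70.1% of all tested genes. Both batches called 502 genes, 46.3% of the batch E and 29.1% of the batch F calls, 499 of them in the same direction. Across the 13460 genes, which are not independent of each other, the log2 fold changes of the batches, which share no library, had a Pearson r of 0.515 and a Spearman value of 0.522.

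The difference between the batches in the response was itself called in 30 of 11017 genes (0.272%) in a fit of the 12 libraries, 9 responding more positively (0.0817%) and 21 more negatively (0.191%) in batch F. CRE20636, on linkage group 4, was raised in both: at 30 °C it stood at 491 and 577 CPM in batch E and 105 to 170.4 in batch F, and at 20 °C at 12.7 and 8.23 CPM in batch E and 61.6 to 83.7 in batch F. Its response was −4.59 ± 0.39 in batch F minus batch E (edgeR adjusted p = 1.4e-05). CRE26134, on scaffold 68, fell in batch F alone, with 17.3 to 19.5 CPM at 30 °C and 85.7 to 124 at 20 °C, against 37.7 and 29.7 CPM at 30 °C and 19.9 and 21.2 at 20 °C in batch E (−3.2 ± 0.31, adjusted p = 5.1e-05). In both genes the 20 °C larvae of batch F stood above those of batch E.

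CRE21032, on linkage group 4, fell by less in batch F, with 49.8 to 64.7 CPM at 30 °C and 91.4 to 104 at 20 °C, against 33.1 and 37.8 CPM at 30 °C and 291 and 232 at 20 °C in batch E (2.09 ± 0.29, adjusted p = 0.0019). CRE09281, on scaffold 252, likewise fell by less in batch F (2.5 ± 0.4, adjusted p = 0.0078), with 34.6 to 61 CPM at 30 °C and 128 to 166 at 20 °C, against 6.49 and 11.6 CPM at 30 °C and 129.7 and 202 at 20 °C in batch E. These last 2 calls were lost without library 1 at 30 °C. The count of 30 fell to 9 without library 1 at 30 °C, to 14 without library 2 at 30 °C or library 4 at 20 °C, to 15 without library 1 or 3 at 20 °C and to 16 without library 6 at 20 °C. It was 89 without libraries 5 and 6 at 30 °C, where the split turned to 48 more positive and 41 more negative.

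**Figure D4:**
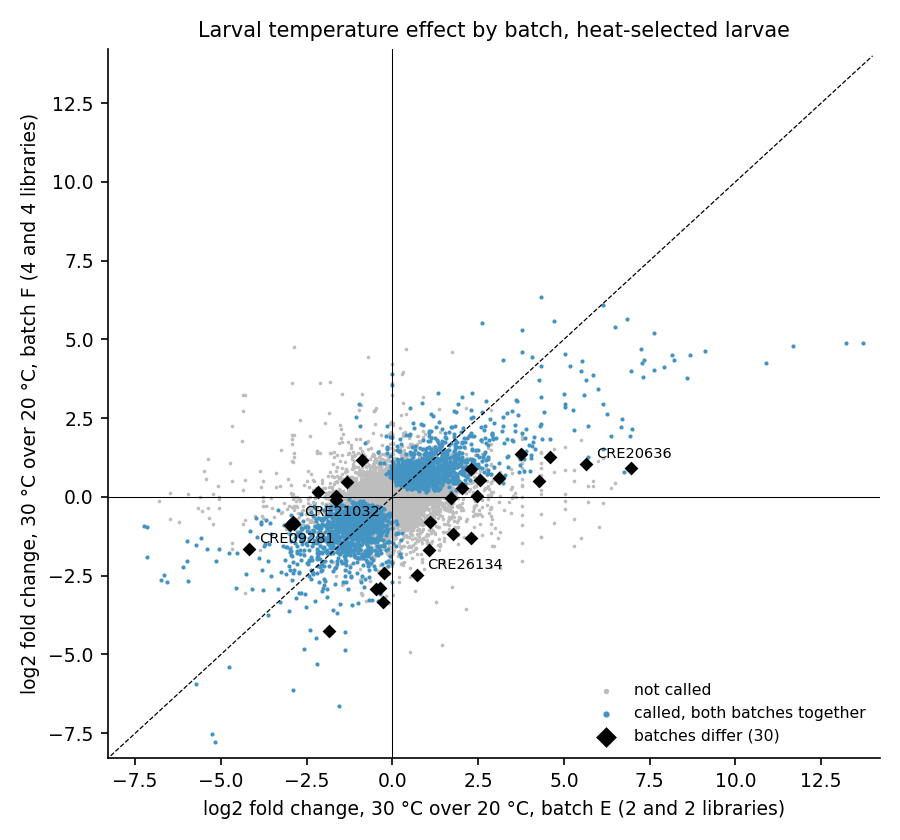
Log2 fold change at 30 °C over 20 °C in batch F against batch E, 1 point per tested gene; black diamonds are the 30 genes whose response differed between batches, and the dashed line marks equal responses. Genes without counts in 1 cell of batch E reach fitted values beyond 10 that are no measured folds, and the 2 labelled genes furthest from the line are CRE20636 and CRE26134.

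Many genes raised at 30 °C in the offspring of unheated parents lay within or near the spread of 20 °C levels when the parents had been heated. In some of them that spread was wide. The comparison is within batch E, 2 libraries in each of 4 cells. With heated parents, library 2 at 20 °C had 47.1% of its reads outside genes, the highest of the 48 libraries, and library 1 had 20.9%. Library 2 at 30 °C with heated parents had the fewest counts in genes of the 48, 1986767. The part of these 2 features in the results was not tested. In larvae of heated parents 345 genes responded to larval temperature (2.56%), 100 higher (0.743%) and 245 lower (1.82%) at 30 °C. The difference between the responses of larvae with heated and unheated parents was called in 186 genes (1.38%), 67 higher (0.498%) and 119 lower (0.884%) with heated parents. Of the 119, 94 were among the genes called raised at 30 °C with unheated parents over both batches (10.7% of all tested genes). Of the 67, 44 were among the genes called lowered over both batches (11.6% of all tested genes). The difference holds the unheated response with a minus sign, which favours both counts, so they are a description. The split turns with scaling: scaled to total counts alone 128 of 215 were higher, as the median of all genes moved to 0.47 on the log2 scale, against 0.04 otherwise. With libraries summed in pairs, which leaves 1 value per cell that is assumed to vary like the other groups, 1 gene was called (524 at an unadjusted p under 0.05, edgeR).

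Abundant raised genes were among the 119. CRE18322 had 126 and 59 CPM at 30 °C with heated parents and 13208 and 10999.9 CPM in batch E with unheated parents, and at 20 °C 18 and 210.2 CPM with heated and 72.9 and 121 CPM with unheated parents. Its log2 response was −0.29 ± 0.93 with heated and 6.97 ± 1.19 with unheated parents, a difference of −7.26 ± 1.44 (edgeR adjusted p = 0.003). In this gene both libraries at 30 °C with heated parents lay within the range of the 4 libraries of batch E at 20 °C. CRE18316 stood at 27.9 and 11.9 CPM at 30 °C with heated and 2792 and 1849.8 CPM with unheated parents (difference in response −8.41 ± 1.6, adjusted p = 0.0018). CRE01029 stood at 18.4 and 31.5 CPM at 30 °C with heated and 5407 and 6669.6 CPM with unheated parents (−8.92 ± 1.79, adjusted p = 0.0032). CRE_PX356_430 stood at 28.5 and 66.6 CPM at 30 °C with heated and 7634 and 9590.3 CPM with unheated parents (−8.72 ± 1.92, adjusted p = 0.0098). In all 4 genes library 2 of the larvae at 20 °C with heated parents was above both libraries at 30 °C with heated parents, and library 1 was below both. Libraries 1 and 2 at 20 °C with heated parents held 3.09 and 45 CPM of CRE18316 and 3.95 and 82.6 CPM of CRE01029. For CRE_PX356_430 they held 1.89 and 96.1 CPM. The heated-parent responses of these genes therefore rest on 2 unlike libraries at 20 °C.

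Genes with steadier 20 °C values gave the same picture. On scaffold 35, CRE01046 had 74.5 and 80 CPM at 30 °C with heated and 408 and 371 CPM with unheated parents, and at 20 °C 78.1 and 84 CPM with heated and 74.7 and 80.2 CPM with unheated parents (−2.4 ± 0.44, adjusted p = 0.001). CRE00953 had 161 and 177 CPM at 30 °C with heated and 1999.7 and 2312 CPM with unheated parents (−3.43 ± 0.69, adjusted p = 0.0033). CRE_PX356_198 had 0 counts at 30 °C in both libraries of heated parents, against 85 and 74.1 CPM with unheated parents. Of the 33 genes raised by at least 4, 13 were among the 119 (0.884% of all tested genes). None of the 33 was called higher at 30 °C with heated parents, where 0.743% of all tested genes were. At that share any 33 genes could hold none, and only 16 of these 33 had a mean log2 CPM of at least 1. In 20 of the 33 both heated-parent libraries at 30 °C lay below all 6 unheated-parent libraries at 30 °C. The share of all tested genes with that order was not counted, so the 20 cannot be weighed against it. The list was chosen by a response that includes the same unheated libraries of batch E, so these counts are a description.

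Lowered genes included some that fell with either kind of parent. CRE19026 stood at 0.221 and 0 CPM at 30 °C and 13.9 and 14.3 CPM at 20 °C with heated parents, a log2 response of −6.46 ± 0.74 (adjusted p = 6e-07), and −5.17 ± 0.62 with unheated parents of batch E. CRE02474 was not called with heated parents (−0.74 ± 0.33, adjusted p = 0.27): it then had 119 and 74.6 CPM at 30 °C and 174 and 151 CPM at 20 °C, and with unheated parents 6.18 and 7.5 CPM at 30 °C and 54.7 and 117 CPM at 20 °C, a difference in response of 2.89 ± 0.51 (adjusted p = 0.00079). Among the 178 genes raised by at least 2 in batch E the median log2 response was 0.19 with heated parents and 2.93 with unheated parents, and 13 were called raised in both. Among the 149 lowered by at least 2 the medians were −1.0 and −2.67, and 39 were called lowered in both. Both lists were chosen by the unheated values, so the gap between the medians is a description, and the difference between the lists was not tested. The count of 186 was 84 without library 1 at 20 °C and 92 without library 1 at 30 °C of unheated parents, and 94, 91 and 89 without library 1 or 2 at 20 °C or library 2 at 30 °C of heated parents.

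**Figure D5:**
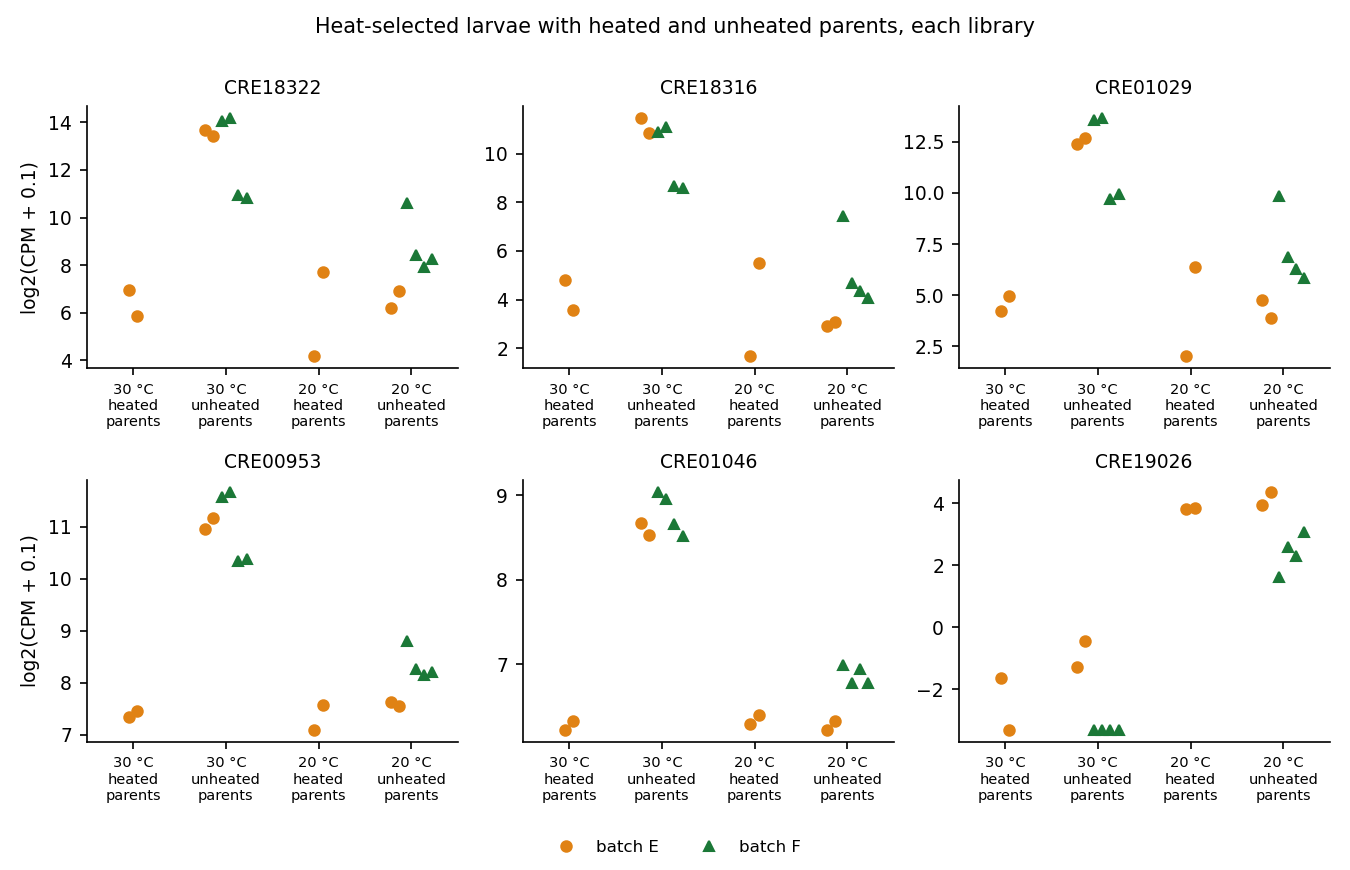
Level of each heat-selected library on a log2(CPM + 0.1) scale for 5 raised genes and for CRE19026, which fell, by larval temperature and parental temperature; circles are batch E and triangles batch F, and the vertical axes differ. In the 5 raised genes larvae at 30 °C with heated parents lie near the larvae at 20 °C, while CRE19026 is low at 30 °C with either kind of parent.

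The response of heat-selected larvae was then set against the responses of ancestor and control-selected larvae, which share no library with it. The ancestor's response held 39% of all tested genes and that of control-selected larvae 23.4%. Ancestor libraries held 5144716 to 8466404 counts in genes at 30 °C and 4385337 to 8184471 at 20 °C. Heat-selected libraries held 3132367 to 5757222 and 2196238 to 4164215. At 20 °C the mean share of reads outside genes was 18.3% in ancestor and 31.5% in heat-selected larvae. The part of depth and of these reads in the shares called was not tested. Of the 1439 raised genes, 77.4% were called raised in the ancestor, where 21.2% of all tested genes were, and 61.2% in control-selected larvae, where 12.2% were. Of the 1561 lowered genes 70.1% were called lowered in the ancestor (17.9% of all) and 56.8% in control-selected larvae (11.2% of all). Of the 33 most strongly raised genes 30 were raised in ancestor larvae and 21 in control-selected larvae. For the 9 most strongly lowered genes the counts were 5 and 5. The median log2 response of these 9, which were chosen by the heat-selected values, was −2.21 for the ancestor and −1.51 for control-selected larvae.

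The response itself differed from that of the ancestor in 61 genes (0.453%), 17 higher (0.126%) and 44 lower (0.327%) in heat-selected larvae, and from that of control-selected larvae in 30 genes (0.223%), 6 higher (0.0446%) and 24 lower (0.178%). With libraries summed in pairs edgeR called 0 genes in each, with 403 and 347 at an unadjusted p under 0.05, and DESeq2 on single libraries called 106 and 79. CRE10586 was among the differing genes of both comparisons. It stood at 13.7, 80.4 and 96.2 CPM at 20 °C in heat-selected larvae, 6.79, 9.1 and 13.3 in ancestor and 7.85, 13.3 and 22.4 in control-selected larvae, whereas at 30 °C the medians were 4.03, 3.6 and 6.35 CPM. The difference in response was −2.5 ± 0.43 from the ancestor (edgeR adjusted p = 0.0017) and −2.53 ± 0.43 from control-selected larvae (adjusted p = 0.0013). Its 4 highest libraries at 20 °C were all batch F, and libraries 1 and 2 stood at 13.7 and 19.5 CPM. The batch difference was called too (−2.41 ± 0.44, adjusted p = 0.024). CRE20697 differed in both comparisons too, by −3.17 ± 0.69 (adjusted p = 0.016) and −3.02 ± 0.64 (adjusted p = 0.017). Its difference between batches was not called (−3.1 ± 0.84, adjusted p = 0.21), which does not show that the batches were alike. The response was −2.2 ± 0.72 in batch E and −5.31 ± 0.51 in batch F. At 20 °C CRE20697 stood at 8.21 and 6.07 CPM in batch E and 24.9 to 61.5 CPM in batch F. Control-selected larvae at 20 °C held 2.62 to 10.9 CPM and ancestor larvae 1.39 to 6.83 CPM.

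Among genes with the largest differences from the ancestor, CRE01098, on scaffold 35, rose further in heat-selected larvae. It stood at 8.42, 64.2 and 191 CPM at 30 °C and 2.17, 3.04 and 7.32 CPM at 20 °C in heat-selected larvae, and at 5.91, 9.9 and 18.5 CPM at 30 °C and 2.09, 3.36 and 9.83 CPM at 20 °C in ancestor larvae (3.13 ± 0.68, edgeR adjusted p = 0.016). Its high values were in libraries 1 to 4, while libraries 5 and 6 (8.42 and 10.2 CPM) lay within the range of ancestor larvae at 30 °C. The call was lost without library 2 at 20 °C (adjusted p = 0.061). The ancestor's own response was not called (0.99 ± 0.45, adjusted p = 0.076). CRE11034, on linkage group 4, responded less, at 26.2, 42.2 and 51.9 CPM at 30 °C and 3.98, 19.7 and 31.1 CPM at 20 °C in heat-selected larvae against 31.6, 125 and 387 CPM at 30 °C and 0.864, 5.19 and 14 CPM at 20 °C in ancestor larvae (−4.21 ± 0.57, adjusted p = 1.6e-05). Its 20 °C level was 15.9 to 31.1 CPM in batch F and 3.98 and 7.8 CPM in batch E, and the difference between the batches was called (−2.5 ± 0.5, adjusted p = 0.043). CRE05046 (2.89 ± 0.37, adjusted p = 7.3e-06) and CRE23514 (−3.51 ± 0.76, adjusted p = 0.016) were not called for larval temperature in heat-selected larvae (adjusted p = 0.081 and 0.74). Their batches were unlike: CRE05046 was 0.03 ± 0.38 in batch E and was raised in batch F (1.1 ± 0.33, adjusted p = 0.023). CRE23514 was raised in batch E (3.09 ± 0.93, adjusted p = 0.03) and was −1.29 ± 0.49 in batch F (adjusted p = 0.074). The difference between batches was not called in either gene (adjusted p = 0.64 and 0.11).

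Against control-selected larvae, CRE02205, on scaffold 90, went in opposite directions. It had 0, 1.24 and 3.64 CPM at 30 °C and 2.17, 5.57 and 10.6 CPM at 20 °C in heat-selected larvae, and 4.41, 6.1 and 9.93 CPM at 30 °C and 0.991, 1.49 and 2.38 CPM at 20 °C in control-selected larvae (−3.67 ± 0.52, edgeR adjusted p = 7.4e-05). Both responses were called, at adjusted p-values of 0.0019 and 2.8e-05, and the heat-selected call was lost with pairs summed (adjusted p = 0.094). By batch, the heat-selected fall was called in batch F (−1.82 ± 0.44, edgeR adjusted p = 0.004) and not in batch E (−0.82 ± 0.78, adjusted p = 0.59). It rests on 40 counts at 30 °C and 99 at 20 °C. CRE30718, on scaffold 114, fell in heat-selected larvae (−2.81 ± 0.56, adjusted p = 0.00029) and was not called in control-selected larvae (0.55 ± 0.41, adjusted p = 0.36), a difference of −3.36 ± 0.7 (adjusted p = 0.016). At 30 °C control-selected libraries 5 and 6 held 29.3 and 29.6 CPM and the others at most 7, against 1.5 to 12.6 CPM at 20 °C. In heat-selected batch E it held 0 and 0 CPM at 30 °C and 2.49 and 0 at 20 °C, and its fall was not called there (edgeR adjusted p = 0.11). CRE15096 (2.34 ± 0.48, adjusted p = 0.015) and CRE05046 (1.82 ± 0.36, adjusted p = 0.0098) had the largest positive differences, and neither was called for larval temperature in heat-selected larvae. The calls of CRE15096 and CRE30718 were lost without library 3 or library 4 at 30 °C. The count of 30 depends on single libraries: it was 16 without library 3, 14 without library 4 and 46 without library 5 at 30 °C, and 163 without libraries 5 and 6 together, 66 higher and 97 lower. Scaled to total counts alone it was 51, of which 2 were higher, with the median of all genes at −0.22. Since batches are not shared by populations, a difference between populations and one between batches cannot be told apart. Neither comparison was tested over more than 1 population per regime.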

How the data were processed

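Polyadenylated RNA of pooled L1 larvae was sequenced, and the authors deposited 1 file of raw read counts for each library. Alignment was with GSNAP and counting with HTSeq, per the submitters' processing notes. Build and strandedness are not given in the sources used here. Without strand, reads of a gene and an overlapping antisense partner cannot be told apart.

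Counts were tested with edgeR 4.0.16 in R 4.3.3: TMM scaling, filterByExpr at a minimum count of 10 and 1 quasi-likelihood fit of 48 libraries with 12 groups and the labelled batch. The difference between batches was fitted on the 12 libraries alone. Genes passed at an adjusted p under 0.05 (Benjamini-Hochberg, over all genes tested). Rows for reads not counted (5 categories) stayed out of library sizes. CPM divide counts by the TMM-scaled library size. The scripts were tested on simulated data.

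Named genes had a mean log2 CPM of at least 1 and were the 6 per direction with the largest fold change among genes also called with pairs summed, the 4 per direction with the largest CPM difference, 2 per direction for each difference between batches or populations, and the longest runs of neighbours; others are said to be picked after their values were seen. The members, lists and rules were chosen with earlier results of these data known. Planned protein signatures, promoter motifs and marker lists were not run, because the reference used here pairs identifiers with locus tags alone. Alternatives included DESeq2 1.42.0 and limma-voom (limma 3.58.1).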

Additional observations from a re-analysis of the deposited data

Results flagged for a closer look

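Among 92 groups of 6 libraries examined (named genes on a log2 CPM scale with a prior count, read categories and scaling factors), 3 held a library far from the other 5, where chance gives about 5% of groups. CRE_PX356_198 had 1.46 CPM in library 3 at 20 °C and 0 in the other 5, so the gap was the whole range of the group (ratio 1). CRE21296 had 26.4 CPM in library 3 at 20 °C, with the next at 1.06 CPM (gap over range on that log2 scale 0.689). CRE27021 had 5480.4 CPM in library 2 at 20 °C, with the next at 3209 CPM (gap over range on that log2 scale 0.846).

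The response to larval temperature differed from that of the ancestor in 61 genes and from that of control-selected larvae in 30 genes, by edgeR's test of the difference itself. It differed between larvae of heated and unheated parents in 186 genes. Outside the gene counts, the share of reads on overlapping gene models was 1.5 percentage points higher at 30 °C than at 20 °C.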

How the results depend on the processing

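The 3000 genes called for larval temperature became 1937 without a batch term, 683 with pairs summed, 532 against a fold change of 1.5, 472 from batch E alone and 1894 from batch F alone, and 2327 to 2999 when each library was left out. Counts within 1.5 times came from DESeq2 (3234), limma-voom (2879), no filter (2567) and a minimum count of 50 (2716). The 61 genes differing from the ancestor became 106 with DESeq2, 10 without a batch term, 0 with pairs summed (edgeR, 403 at an unadjusted p under 0.05) and 46 to 77 leaving out each library. The 30 differing from control-selected larvae became 51 scaled to total counts, 53 without a filter, 79 with DESeq2, 7 without a batch term, 0 with pairs summed (edgeR, 347 unadjusted), 163 without libraries 5 and 6 at 30 °C and 14 to 46 leaving out each library. The 186 differing by parents became 1 with pairs summed and 84 to 257 leaving out each library. The 30 differing between batches became 75 in a fit of all 48 libraries, 82 with DESeq2, 89 without libraries 5 and 6 at 30 °C and 9 to 35 leaving out each library. Scaling to total counts moved the median log2 fold change of all genes to −0.16 for larval temperature, −0.22 against control-selected larvae, 0.47 by parents and 0.11 between batches. Of 1053 results of named genes under alternatives, 932 kept direction and call, 121 kept direction and lost the call and 0 reversed. The cause of these shifts was not tested.

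The labels do not say that a replicate number marks a shared culture or day. Deviations of same-numbered libraries from their group means correlated at −0.02 to 0.55, 5 of 6 above 0.1, and 3 of 6 correlated best with their own number. These values hold the batch difference, and within batches they were −0.04 to 0.08, so the numbers were not taken as pairs. With the replicate number as a block (replicate block) 2544 genes were called. Protein signature and promoter alternatives were not run. At 2196238 to 5757222 counts per library, genes of few counts rest on single reads.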
